A study of Mus musculus musculus x Mus musculus castaneus with 7 samples.

Results

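The insulin-like growth factor (IGF) axis was described through 8 genes: the ligand Igf1, its receptor Igf1r and the IGF binding protein genes Igfbp2 to Igfbp7. They were taken by symbol from the deposited expression table, where all 8 were found among 24393 genes. The study followed female mouse embryonic fibroblasts (MEFs) of a musculus by castaneus cross through reprogramming, with 1 RNA-seq library for each of 7 groups. The groups were intermediates of Day 2, SSEA1+ intermediates of Days 8, 10, 13 and 15, finished iPSCs (induced pluripotent stem cells) and ESCs (embryonic stem cells). SSEA1 is a surface glycan of mouse pluripotent cells, and both pluripotent populations were sorted for it and for GFP.

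The reprogrammed cells carried 2 lentiviral constructs, tetO-FUW-OSKM (doxycycline-inducible Oct4, Sox2, Klf4 and cMyc) and the activator FUW-M2rtTA. Before induction they were also sorted for the state of an X-linked GFP transgene, carried on either the inactive or the active X chromosome; the labels do not give which state each library had. Intermediates were kept in serum ESC medium with LIF, ascorbic acid and 2 µg/ml doxycycline. Colonies were picked to make the iPSCs, and both additives were then withdrawn. The ESC column is headed F121, no reprogramming step is named for that library, and the Day 2 label names no sort. With 1 library per group there was no spread between replicates, so no test between groups was possible and every interval below covers counting error only.

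IGF1 is a secreted peptide that signals for growth and survival through the receptor tyrosine kinase IGF1R, largely by way of the PI3K-Akt-mTOR and Ras-MAPK cascades. Secreted IGF binding proteins (IGFBPs) hold IGFs in the extracellular space, prolong their life and limit or direct their access to the receptor, and proteases release the ligand by cutting them. Fibroblasts are known producers of several IGFBPs, and tissue macrophages are a known source of IGF1. Cultured pluripotent cells respond to IGFs, which reach them from serum, feeder cells or differentiated neighbours.

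The binding proteins share a cysteine-rich amino-terminal domain. A short stretch of it is shown here because the longest run of coding bases shared by any pair of the 8 genes, that of Igfbp2 and Igfbp3, overlaps it. The coding strand of GENCODE M21 transcripts (GRCm38) is given 5′ to 3′, and capitals mark the 24 bases that encode the IGFBP cysteine signature of the domain, in exon 1 of each gene. The capitals lie at chr1:72824778-72824801 (forward strand) in Igfbp2, chr11:7213566-7213589 (reverse) in Igfbp3, chr11:99041650-99041673 (forward) in Igfbp4 and chr1:72873966-72873989 (reverse) in Igfbp5.
Igfbp2: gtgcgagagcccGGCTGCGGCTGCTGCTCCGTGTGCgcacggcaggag
Igfbp3: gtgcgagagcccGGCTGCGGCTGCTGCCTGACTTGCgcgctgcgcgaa
Igfbp4: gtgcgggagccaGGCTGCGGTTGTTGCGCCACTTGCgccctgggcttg
Igfbp5: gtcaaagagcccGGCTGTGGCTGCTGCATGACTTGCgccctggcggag

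Igfbp3 and Igfbp5 differed at 2 of the 24 capital bases, and the other pairs at 5 to 7. No match to the signature was found in the longest coding sequences of Igfbp6, Igfbp7, Igf1 or Igf1r. In any frame, the pattern occurred in protein-coding transcripts of 23 of 21877 genes (0.105%), among them Ccn1 and Ccn2, whose older names Cyr61 and Ctgf are used in the expression table. The longest run of bases shared by the coding sequences of any pair of the 8 genes was 33 bases, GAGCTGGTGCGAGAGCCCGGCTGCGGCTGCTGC, in Igfbp2 and Igfbp3, and it overlaps the signature. The next longest was 22 bases, in Igfbp3 and Igfbp5, and it lies outside the stretch shown.

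Libraries held 15370903 (iPSC) to 57021069 (Day 15) reads assigned to genes. Levels are given as normalized counts, reads divided by a size factor per library. A floor of 3 reads, set in place of any lower count, was worth 1.74 (Day 15) to 7.03 (iPSC) normalized counts. Of the 4 genes of the inducible vector, Pou5f1 (Oct4) and Sox2 had no read in the library labelled Day 2, Klf4 had 309 reads, its lowest level of the 7 libraries, and Myc had 9773 reads, its highest. Directions drawn from that library compare with it as labelled. All 12 fibroblast markers had reads in it and 9 of 10 pluripotency markers had none. Pluripotency markers summed to 29897 normalized counts on Day 8, 372400 in iPSCs and 324642 in ESCs. Pou5f1, also a gene of the vector, gave 18033 of that sum on Day 8, 22756 in iPSCs and 20375.5 in ESCs. Its reads from the vector and from the gene itself were not separated. Of genes that reached 256 normalized counts in the other 6 libraries, 1.67% had no read on Day 2 and 2.13% had none on Day 8, against at most 2 genes in any other library. Absent reads on Day 8 are weaker evidence of a low level than elsewhere. The Day 2 share included Pou5f1, Zfp42, Cdh1 and Epcam, pluripotency and epithelial markers with reads in every later library. For Day 2, missed reads and genes that are off cannot be told apart. Mitochondrial genes took 20.9% of reads in ESCs, against 1.72% to 5.61% in the other 6 libraries.

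**Figure D1:**
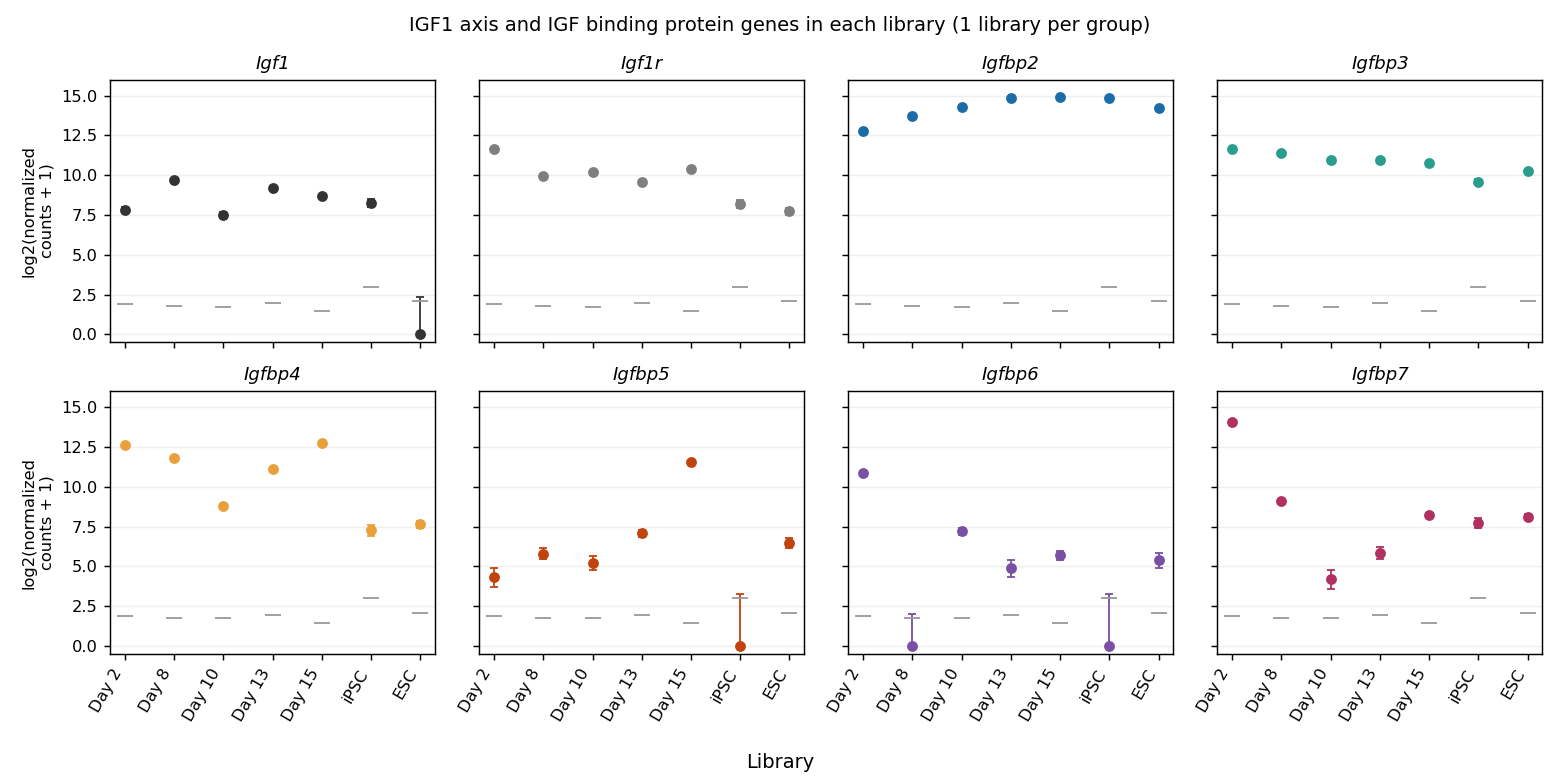
Level of each of the 8 genes in each library, on the deposited log2(normalized counts + 1) scale. Points are single libraries, bars are exact 95% Poisson intervals of the reads, and grey ticks are the floor of 3 reads. Igfbp3 and Igfbp2 have the narrowest ranges of the 8 genes (4.12-fold and 4.38-fold). Igfbp6 and Igfbp7 are far lower in every later library than on Day 2.

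The ligand gene Igf1 was detected in 6 libraries and absent from the ESC library. Its level was 224 normalized counts on Day 2, 818 on Day 8, 183 on Day 10, 591 on Day 13, 408 on Day 15, 302 in iPSCs and 0 in ESCs. Days 8 and 13 were the highest libraries, and the ESC library, which also had the highest mitochondrial share, was at 0. The part of RNA quality in that 0 was not tested. Igf1 was 3.65-fold higher on Day 8 than in the library labelled Day 2 (95% interval 3.17 to 4.21), 4.46-fold lower on Day 10 than on Day 8 (3.87 to 5.16) and 3.22-fold higher on Day 13 than on Day 10 (2.77 to 3.76). In ESCs it was at least 93.2-fold lower than in iPSCs, where 129 reads were counted. That ratio sets the ESC library at the floor, and the lower limit of its 95% counting interval, which covers both libraries, was 74.8-fold. Such an absence was rare. The lowest level of Igf1 in the 6 remaining libraries, 183 normalized counts, was reached in all 6 by 7291 genes. Of these, 4 lacked any read in ESCs (0.0549%), Igf1 among them. At a level of 64 normalized counts instead, 28 of 8659 genes lacked reads in ESCs (0.323%). Between iPSCs and the library labelled Day 2 the level was 1.35-fold apart (1.08 to 1.68). No neighbouring pair in the order of the 7 levels had a ratio whose counting interval included equality.

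Igf1 lies at chr10:87858265-87937042 on the forward strand. The antisense gene Igf1os lies within its span without sharing exon bases. The libraries did not mark the strand, but Igf1os had 40 reads on Day 15 and 0 elsewhere.

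Macrophage markers moved with Igf1 over Days 8 to 13. The 12 markers summed to 423 normalized counts on Day 2, 30032 on Day 8, 1524 on Day 10, 16972 on Day 13, 2873 on Day 15, 3371 in iPSCs and 1780 in ESCs. All 12 were at least 2-fold higher on Day 8 than on Day 2, all 12 were lower on Day 10 than on Day 8, and all 12 were higher on Day 13 than on Day 10. At Day 2, where Igf1 had 245 reads, 9 of the 12 had no read, including Ptprc, Spi1 and Adgre1; on Day 10 Spi1, Mpeg1 and Ctss had none. In ESCs, where Igf1 had no read, Adgre1 alone was at 0 and 11 had reads. The part of such cells in the Igf1 level was not tested, and in these bulk samples fewer cells of a type and less RNA per cell cannot be told apart.

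**Figure D2:**
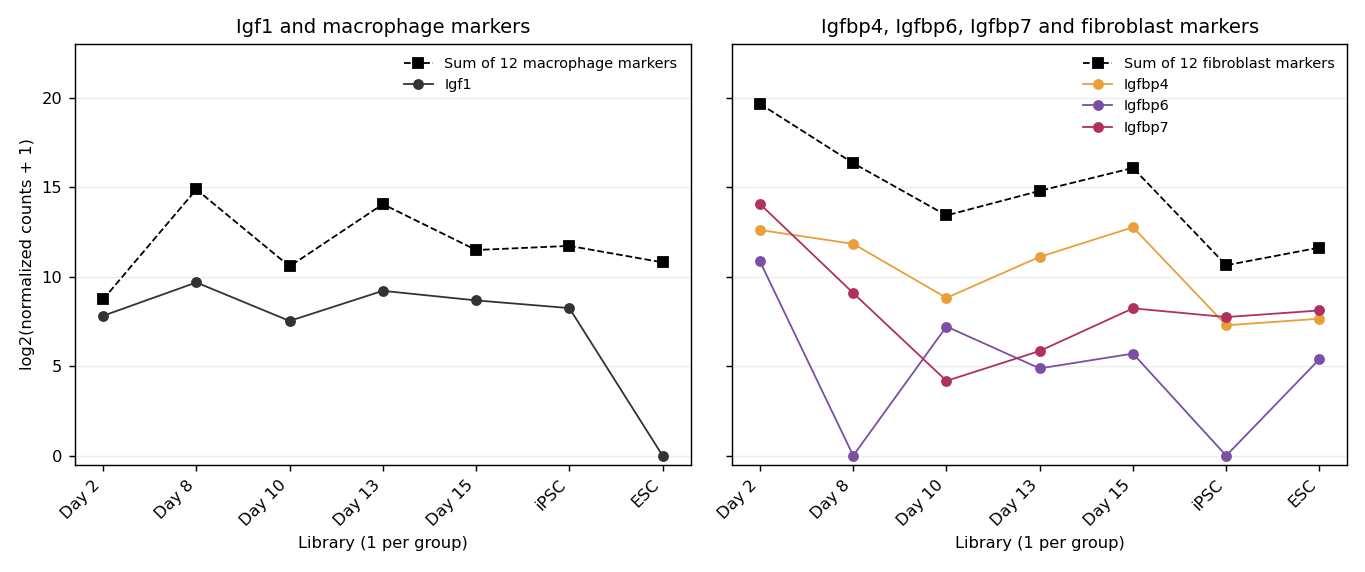
Left, Igf1 and the sum of 12 macrophage markers; right, Igfbp4, Igfbp6 and Igfbp7 and the sum of 12 fibroblast markers, on the log2(normalized counts + 1) scale over the 7 single libraries. Igf1 and the macrophage sum are both high on Days 8 and 13 (818 and 30032 normalized counts on Day 8), but Igf1 is at 0 in ESCs where the macrophage sum is 1780.

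The receptor gene Igf1r was lower in both pluripotent libraries than in every intermediate. Its level was 3184 normalized counts on Day 2, 1001 on Day 8, 1184 on Day 10, 776 on Day 13, 1371 on Day 15, 295 in iPSCs and 211 in ESCs. The 4 sorted intermediates lay between 776 and 1371, so most of the distance was covered in a pair of steps, before Day 8 and after Day 15. Igf1r was 3.18-fold lower on Day 8 than in the library labelled Day 2 (2.98 to 3.40), and 4.64-fold lower in iPSCs than on Day 15 (3.88 to 5.60). Across the whole course it was 10.8-fold lower in iPSCs than in the library labelled Day 2 (9.03 to 13.0). ESCs and iPSCs were within 2-fold of each other (ratio 0.71, 0.57 to 0.90). The gene lies at chr7:67952827-68233668 on the forward strand.

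The remaining IGF ligands and receptors, a short list taken from knowledge of the pathway, differed in direction between iPSCs and the library labelled Day 2. Igf2, the other IGF ligand, had 2 reads in iPSCs (4.69 normalized counts) against 2111 reads in the library labelled Day 2 (1930.0 normalized counts), and the counting interval of the ratio was 114- to 3403-fold lower. It had 366 reads on Day 10 and 1139 on Day 15, and ESCs had 3 reads, so the lowest values were those of the 2 pluripotent libraries. Igf2r, a scavenger receptor that clears IGF2, was 2.21-fold lower in iPSCs than in the library labelled Day 2 (1.98 to 2.47), and within 2-fold under each of the 3 other scalings of the libraries. The insulin receptor gene Insr was 1.97-fold higher (1.50 to 2.58), just inside the 2-fold limit, and passed it under each of those scalings. Insrr had at most 9 reads in any library.

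IGFBP transcripts were mostly Igfbp2 in the later libraries, against a mixture led by Igfbp7 in the library labelled Day 2. Levels of different genes were compared per kilobase of exon (normalized counts divided by the union of annotated exons). Of the sum over the 6 binding protein genes, Igfbp2 made up 17.3% on Day 2, 77.0% on Day 8, 92.2% on Day 10, 92.8% on Day 13, 85.1% on Day 15, 97.2% in iPSCs and 93.7% in ESCs. Igfbp7 made up 64.1% on Day 2 (63.7 to 64.6), 4.82% on Day 8, 0.123% on Day 10 and between 0.276% and 2.02% in the later libraries. The intervals come from the reads of each gene with the mix of the other 5 held fixed. The remainder on Day 2 was Igfbp6 (7.55%), Igfbp4 (6.41%) and Igfbp3 (4.56%). At Day 15, Igfbp4 (8.00%) and Igfbp5 (2.58%) took a larger share than on Day 13 (2.94% and 0.131%). As shares of reads, with no division by length, Igfbp2 made up 65.7% on Day 8 and 72.0% on Day 15, Igfbp4 16.2% and Igfbp5 7.08% on Day 15, and on Day 2 Igfbp4 (17.6%) came before Igfbp3 (8.89%) and Igfbp6 (5.22%). Igfbp2 was the leading binding protein gene per kilobase in each of the 6 libraries after Day 2.

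The sum itself changed less than its composition. It was 22029 normalized counts per kilobase on Day 2, 9307 on Day 8, 11494 on Day 10, 16974 on Day 13, 19645 on Day 15, 16362 in iPSCs and 11271 in ESCs. The lowest library was Day 8, where Igfbp7 was already low and Igfbp2 had not reached its later level.

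**Figure D3:**
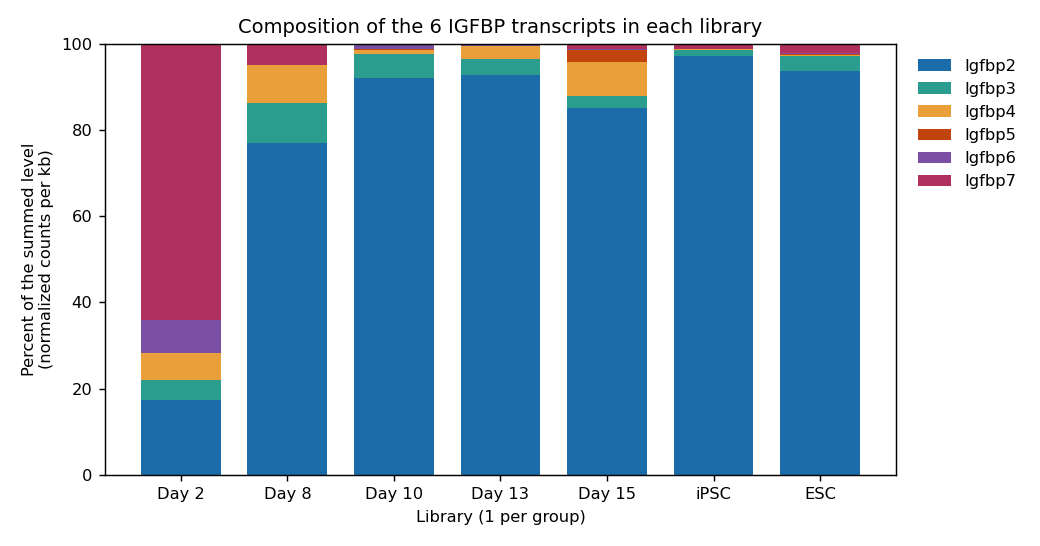
Share of each binding protein gene in the sum of the 6 genes, in normalized counts per kilobase of exon, for each of the 7 single libraries. Igfbp7 takes 64.1% on Day 2, and Igfbp2 takes 77.0% to 97.2% in all later libraries.

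Igfbp2 encodes a binding protein with a preference for IGF2 that is abundant in the embryo. Its level was 7054 normalized counts on Day 2, 13239 on Day 8, 19573 on Day 10, 29096 on Day 13, 30894 on Day 15, 29379 in iPSCs and 19504 in ESCs. Each sorted intermediate was above the earlier ones, with a step of 1.06-fold (1.05 to 1.08) between Days 15 and 13. In iPSCs it was 4.16-fold higher than in the library labelled Day 2 (4.05 to 4.29), the only one of the 8 genes that was at least 2-fold higher in that comparison. ESCs had a lower level than iPSCs by a ratio of 0.66 (0.65 to 0.68). In the order of levels, iPSC and Day 13 could not be separated by counting error, nor could Day 10 and ESC.

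Igfbp3, which in the blood carries IGFs together with the acid-labile subunit, had the most gradual decline. Its level was 3147 normalized counts on Day 2, 2680 on Day 8, 2008 on Day 10, 1961 on Day 13, 1713 on Day 15, 764 in iPSCs and 1209 in ESCs. The intermediates from Day 8 on came within 2-fold of their neighbours, and Days 10 and 13 could not be separated by counting error. It was 2.24-fold lower in iPSCs than on Day 15 (2.00 to 2.52) and 4.12-fold lower than in the library labelled Day 2 (3.68 to 4.63). ESCs were 1.58-fold higher than iPSCs (1.40 to 1.80).

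Igfbp4, an inhibitor of IGF action that the protease PAPP-A cleaves, was low in both pluripotent libraries and highest on Days 2 and 15. Its level was 6236 normalized counts on Day 2, 3647 on Day 8, 449.7 on Day 10, 2206 on Day 13, 6940 on Day 15, 155 in iPSCs and 200 in ESCs. The intermediates thus formed a trough on Day 10 with a return on Days 13 and 15. It was 8.11-fold lower on Day 10 than on Day 8 (7.44 to 8.86), 4.91-fold higher on Day 13 than on Day 10 (4.48 to 5.39) and 3.15-fold higher on Day 15 than on Day 13 (3.01 to 3.29). In iPSCs it was 44.9-fold lower than on Day 15 (35.3 to 58.1) and 40.3-fold lower than in the library labelled Day 2 (31.7 to 52.2). ESCs and iPSCs could not be separated by counting error (ratio 1.29, 0.97 to 1.74). Its neighbours on chromosome 11 are Top2a, 17.054 kb before it, and Tns4, 11.285 kb beyond it, both on the opposite strand. Top2a had 8197 normalized counts on Day 2, 14150 on Day 10, 21684 on Day 13, 16839 on Day 15 and 16508 in iPSCs. Tns4 had 46.6 normalized counts on Day 2, 73.8 on Day 10, 165 on Day 13 and 605 on Day 15, with 0 reads on Day 8 and in iPSCs and ESCs.

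Igfbp5, a matrix-associated binding protein gene, was high on Day 15 and low elsewhere. Its level was 19.2 normalized counts on Day 2, 54.7 on Day 8, 36.5 on Day 10, 134 on Day 13, 3039.6 on Day 15, 0 in iPSCs and 87.5 in ESCs. Day 15, with 5236 reads, stood above the next library, Day 13, by 22.7-fold (19.2 to 27.1). In iPSCs it was at least 432-fold lower than on Day 15 (lower limit 352 with counting error), and in ESCs at least 12.5-fold higher than in iPSCs (lower limit 9.90). Of 9662 genes that reached 19.2 normalized counts in the other 6 libraries, 68 lacked reads in iPSCs (0.704%), the shallowest library. Igfbp5 was among them, and 19.2 was its own lowest level in those libraries. Between iPSCs and the library labelled Day 2 both values were too low for a comparison.

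Igfbp5 lies beside Igfbp2 on chromosome 1. Igfbp2 occupies chr1:72824503-72852474 on the forward strand and Igfbp5 occupies chr1:72857932-72874884 on the reverse strand, so the 3′ ends face each other across 5.457 kb. Their profiles over the libraries differed by a root mean square of 2.37 on the log2 scale, each profile taken about its own mean. Igfbp2 differed by 1.06-fold between Days 15 and 13, the step at which Igfbp5 differed by 22.7-fold. Igfbp3 and Igfbp4 lie on chromosome 11 far apart, at chr11:7206086-7213923 and chr11:99041244-99054392.

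Igfbp6, which prefers IGF2, was high only in the library labelled Day 2. Its level was 1849 normalized counts on Day 2, 0 on Day 8, 148 on Day 10, 28.3 on Day 13, 51.1 on Day 15, 0 in iPSCs and 41.1 in ESCs. The library on Day 2 was 12.5-fold above the next, Day 10 (10.8 to 14.6). Igfbp6 was at least 755-fold lower on Day 8 than in the library labelled Day 2 (lower limit 614 with counting error), and at least 60.3-fold higher on Day 10 than on Day 8 (lower limit 48.5). It was at least 263-fold lower in iPSCs than in the library labelled Day 2 (lower limit 214). In the order of levels, ESCs could be separated by counting error neither from Day 15 above nor from Day 13 below, while Days 15 and 13 differed by 1.80-fold (1.17 to 2.85). With Day 8 among the libraries that lack reads of genes high elsewhere, the value of 0 there rests on a single library, and on Day 10 the gene was lower than in the library labelled Day 2 by 3.65 on the log2 scale. The gene lies at chr15:102144362-102149511 on the forward strand.

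Igfbp7, a secreted relative with low affinity for IGFs, had the largest fold between iPSCs and the library labelled Day 2 among the 5 genes with reads in every library. Its level was 17078 normalized counts on Day 2, 542 on Day 8, 17.1 on Day 10, 56.6 on Day 13, 299.5 on Day 15, 213 in iPSCs and 275 in ESCs. It was 31.5-fold lower on Day 8 than in the library labelled Day 2 (29.2 to 34.1) and a further 31.7-fold lower on Day 10 than on Day 8 (20.8 to 51.0), where 22 reads remained. At Day 15 it was 5.29-fold higher than on Day 13 (4.03 to 7.06). In iPSCs it was 80.1-fold lower than in the library labelled Day 2 (65.2 to 99.5), yet higher than on Day 10. Day 15 and ESCs could not be separated by counting error. The gene lies at chr5:77349240-77408041 on the reverse strand, and its exons overlap those of Polr2b on the opposite strand. Without strand, reads of the shared bases cannot be told apart. Polr2b, a subunit of RNA polymerase II, had 2605 normalized counts on Day 2, against 17078 of Igfbp7, and 6244 on Day 10, against 17.1 of Igfbp7.

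The sum of fibroblast markers moved with Igfbp4 and Igfbp7 over Days 8 to 15. The 12 markers summed to 826174 normalized counts on Day 2, 82967 on Day 8, 10968 on Day 10, 28417 on Day 13, 69101 on Day 15, 1593 in iPSCs and 3159 in ESCs. The sum had its trough among the intermediates on Day 10 and a return on Days 13 and 15, as Igfbp4 and Igfbp7 did. Igfbp6 did not, with 0 normalized counts on Day 8, 148 on Day 10, 28.3 on Day 13 and 51.1 on Day 15. Elsewhere Igfbp4 and Igfbp7 parted from the sum. Igfbp4 was higher on Day 15 than on Day 2, where the sum was lower on Day 15. Igfbp7 was higher in iPSCs than on Day 10, where the sum was lower in iPSCs. Dcn and Prrx1 had no return, and were lower on Day 13 than on Day 10 and lower again on Day 15. Between Days 8 and 2, 9 of the 12 markers were at least 2-fold lower on Day 8 and 2 were higher, Dcn and Lum. Between Days 13 and 10, 7 of 9 compared markers were at least 2-fold higher on Day 13, and between Days 15 and 13, 7 of 10 were higher on Day 15. Markers at 0 were Pdgfra and Twist1 on Day 8, Pdgfrb, Twist1 and Twist2 on Day 10, Twist2 on Days 13 and 15, Pdgfrb and Lum in ESCs, and 6 of 12 in iPSCs. The 5 smooth muscle markers summed to 443123 normalized counts on Day 2 and to 1794 to 1903 in the sorted intermediates, with 265 in iPSCs and 2297 in ESCs. The part of remaining fibroblasts in these levels was not tested.

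Markers of 2 other cell types were also summed. The 7 epithelial markers summed to 1381 normalized counts on Day 2, 151611 on Day 8, 132191 on Day 10, 95613 on Day 13, 74339 on Day 15, 12340 in iPSCs and 24821 in ESCs. The 4 endothelial markers in the table had no read on Day 2 and summed to 1174 normalized counts on Day 8, 2121 on Day 10, 2226 on Day 13, 2285 on Day 15, 4198 in iPSCs and 3612 in ESCs. That sum, like Igfbp2, was higher at each later day and lower in ESCs than in iPSCs. Its 4 genes did not move together. Pecam1 had the most reads of the 4 from Day 10 on. Tek went from a log2 value of 9.30 on Day 8 to 6.41 on Day 13, and Cdh5 and Kdr had no read on Day 8 or in iPSCs. The part of epithelial or endothelial cells in the Igfbp2 level was not tested.

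Folds of the 8 genes were read against those of all genes. A gene was compared if its log2 value reached 6 (64 normalized counts) in at least 1 of the 2 libraries and was called at a difference of at least 2-fold. In each comparison 7 of the 8 genes could be compared. In iPSCs over the library labelled Day 2, 1 was higher (Igfbp2) and 5 were lower, with 28.7% of 13981 compared genes called higher and 29.8% called lower. The median log2 fold of the 7 was -3.43, against 0.02 over all compared genes. At Day 8 over the library labelled Day 2, 1 was higher (Igf1) and 3 were lower, with 26.3% of all compared genes higher and 31.8% lower; the median of the 7 was -0.77, against -0.11 over all compared genes. At Day 10 over Day 8, 1 was higher (Igfbp6) and 3 were lower (Igf1, Igfbp4 and Igfbp7), with 27.7% of all compared genes higher and 18.9% lower. With the minimum log2 value at 8, Igfbp6 left that comparison and 0 were higher. Their median was -0.42, against 0.05 over all compared genes.

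At Day 13 over Day 10, 3 were higher (Igf1, Igfbp4 and Igfbp5) and 1 was lower (Igfbp6), with 15.8% of all compared genes higher and 9.56% lower, and a median of 0.57 against 0.03. At a limit of 4-fold, 1 was higher and 1 lower in that step. At Day 15 over Day 13, 3 were higher (Igfbp4, Igfbp5 and Igfbp7) and 0 were lower, with 14.7% of all compared genes higher and 13.1% lower, and a median of 0.82 against 0.02. In iPSCs over Day 15, 0 were higher and 4 were lower (Igf1r, Igfbp3, Igfbp4 and Igfbp5), with 7.89% of all compared genes higher and 22.2% lower, and a median of -1.16 against -0.02. In ESCs over iPSCs, 1 was higher (Igfbp5) and 1 was lower (Igf1), with 14.6% of all compared genes higher and 13.8% lower, and a median of 0.37 against 0.02. Consecutive comparisons share a library, so their folds are not independent of each other.

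**Figure D4:**
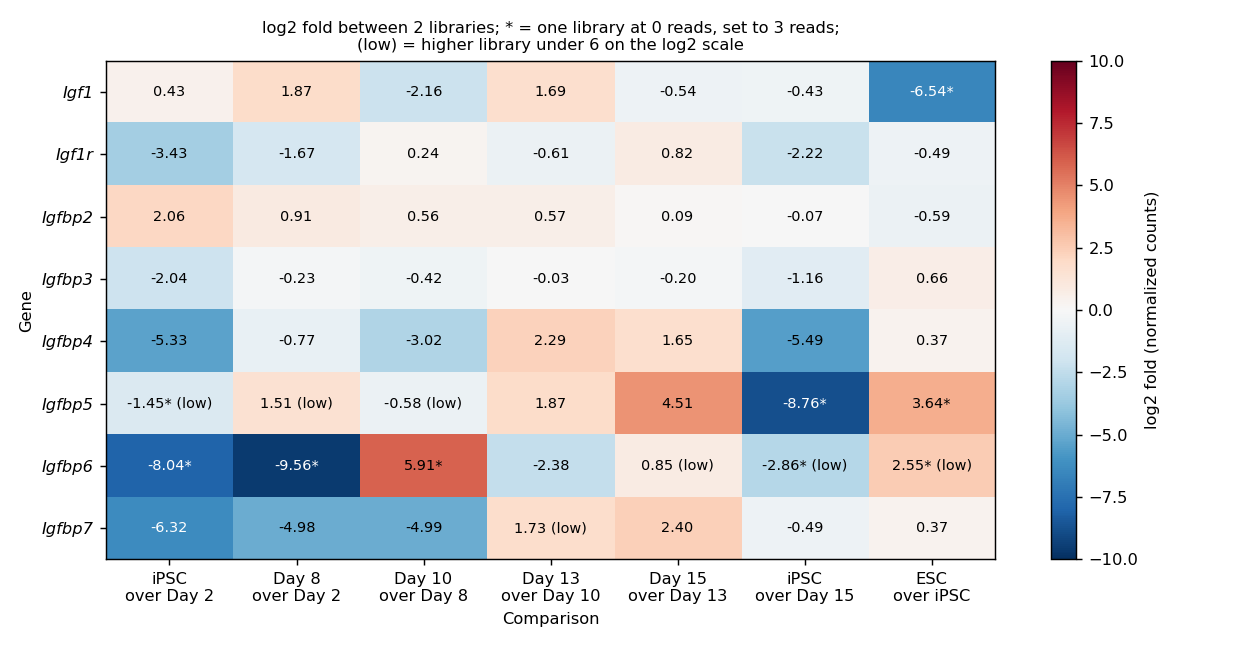
The log2 fold of each gene (rows) in each of the 7 comparisons (columns), with the first-named library over the second. Asterisks mark folds against a library with 0 reads, set to 3 reads, and (low) marks pairs too low to be compared. Igfbp2 is at 2.06 in iPSC over Day 2 where Igfbp7 is at -6.32.

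The pathway lists below compare iPSCs with the library labelled Day 2, where 28.7% of all compared genes were higher and 29.8% lower, with a median log2 fold of 0.02. The list of genes that share the IGFBP domain with the members, which also held Igfals, was lower almost throughout. Of 11 compared, 10 were lower and 1 higher (median log2 fold -5.52). The matricellular proteins Ctgf and Cyr61, which carry the signature shown above, were 133-fold and 45.9-fold lower, and their relative Wisp1 was 148-fold lower. The serine protease Htra1 was 6.64-fold lower. The higher gene was Igfals, which lacks the domain and encodes the acid-labile subunit that carries IGFs in the blood. It was at least 23.1-fold higher on 27 reads in iPSCs against 0 in the library labelled Day 2. Under 1 of the 3 other scalings Igfals fell below the minimum level and left the comparison.

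Proteases that cut IGFBPs, and their inhibitors, were lower in iPSCs in 13 of 14 compared genes (median -6.01). The collagenase inhibitor Timp1 was 66.0-fold lower, the gelatinase Mmp2 111-fold, the membrane protease Adam9 37.0-fold and the lysosomal protease Ctsd 2.88-fold. Pappa, which encodes the IGFBP4-cleaving protease PAPP-A, and Stc2, an inhibitor of PAPP-A, were singled out after their values were seen. Pappa was at least 115-fold lower in iPSCs, and Stc2 was the gene that was higher, by 4.14-fold (3.41 to 5.03). Pappa had 883 reads on Day 2, 171 on Day 15 and 0 in the other 5 libraries, with Igfbp4 highest on the same days, Days 2 and 15. Surface proteins known to bind IGFBPs or to work with IGF signalling, such as integrins, were lower in 8 of 8 genes (median -4.56), with Itga5 54.8-fold, Lrp1 28.0-fold, Itgb1 19.9-fold and Itgav 11.0-fold lower.

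The arm of growth hormone, which in liver drives Igf1 transcription through JAK2 and STAT5, was lower in 5 of 6 genes and higher in 0 (median -2.21). The growth hormone receptor gene Ghr was 322-fold lower in iPSCs, Cish 17.2-fold, Stat5b 9.14-fold, Stat5a 2.34-fold and Jak2 2.08-fold, while Socs2 was within 2-fold. With reads scaled by library totals, Stat5a and Jak2 came within 2-fold and Socs2 passed it as higher, so 3 of the 6 were lower and 1 was higher. In ESCs, the library without Igf1 reads, Jak2 had 0 reads, against 34 in iPSCs, and Ghr had 195 reads, against 5 in iPSCs. Of the 6 genes, 2 were higher and 2 lower in ESCs than in iPSCs, with 14.6% of all compared genes higher and 13.8% lower.

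Genes downstream of the receptor had medians nearer to 0. Of 10 compared substrates and adaptors, 5 were lower and 2 higher (median -0.66). The inhibitory adaptor Grb10 was 28.0-fold lower, the adaptor Shc1 2.38-fold lower and the phosphatase Ptpn11 2.51-fold lower, while the docking protein gene Gab1 was 7.80-fold higher. With reads scaled by library totals Shc1 and Ptpn11 came within 2-fold, and 3 genes were lower and 3 higher. Of 22 genes of the PI3K-Akt-mTOR arm, 7 were lower, 2 were higher and 13 were within 2-fold (median -0.34). The share that was lower was near that of all compared genes, and the share that was higher was below it. The kinase genes Gsk3b and Akt2 were 2.29-fold and 2.07-fold lower, the mTORC2 subunit Rictor 2.31-fold and the lipid phosphatase Inppl1 3.41-fold lower. That median lay at 0.05 with reads scaled by totals without mitochondrial and ribosomal RNA genes, so the arm had no direction that held across scalings; 4 of its genes were then lower and 3 higher, and Gsk3b, Akt2 and Rictor were within 2-fold.

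Igfbp genes are also part of the senescence-associated secretory programme, and a list of senescence-associated genes was lower in 8 of 11 and higher in 2 (median -3.80). The cell cycle inhibitor Cdkn1a was 5.15-fold lower and the chemokine Ccl2 103-fold lower, while the tumour suppressor Trp53 was 3.0-fold higher and the lamin gene Lmnb1, which senescent cells are known to lose, was 4.02-fold higher.

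**Figure D5:**
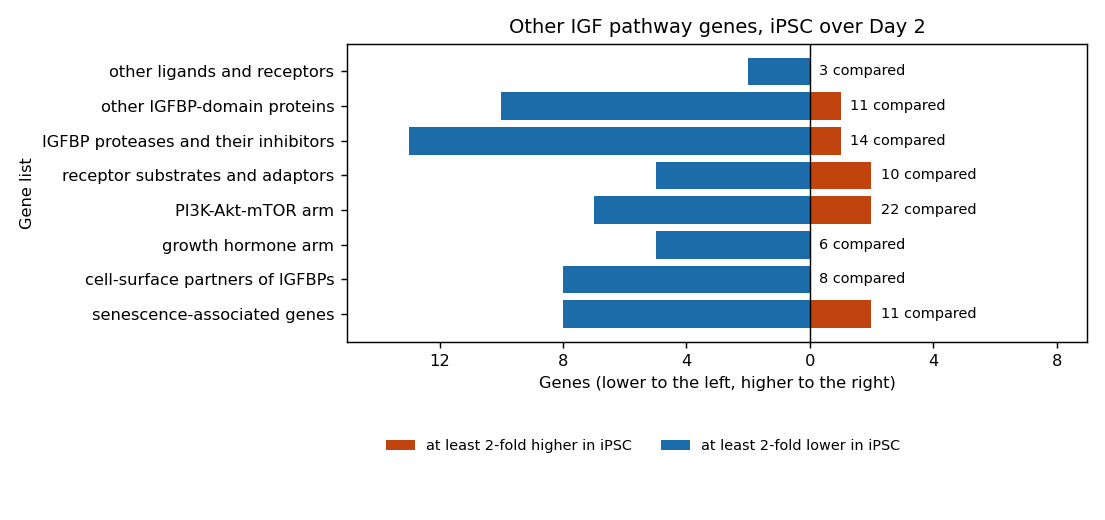
Number of genes of each pathway list at least 2-fold lower (left of 0) or higher (right of 0) in the iPSC library than in the library labelled Day 2, with the number compared. The binding-protein relatives with Igfals (10 of 11 lower), proteases (13 of 14) and surface partners (8 of 8) are nearly all lower. The PI3K-Akt-mTOR arm is mostly within 2-fold.

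For each of the 8 genes the profiles most like it were sought among 16711 genes, by the root mean square difference of log2 values over the 7 libraries, each gene taken about its own mean. Igf1 was closest to Itga9 (0.70), Cd36 (0.71) and Slc16a10 (0.72). Cd36 and Slc16a10 also had no read in ESCs. Igf1r was closest to Sun2 (0.31), Lockd (0.37) and Aig1 (0.38). Igfbp2 was closest to Paxbp1 (0.14), Rybp and Nthl1 (0.17 each), and Igfbp3 to Abhd5 (0.14), Spryd7 (0.15) and Cpeb4 (0.17).

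The remaining binding protein genes had more distant nearest profiles. Igfbp4 was closest to Mylk (0.60), Speg (0.61) and Il4ra (0.71), and Igfbp6 to Adgra2 (0.68), Col16a1 (0.75) and P3h3 (0.77). Igfbp7 was closest to Vim (0.75), the intermediate filament gene of mesenchymal cells, then Col15a1 (0.98) and Nexn (1.04). Igfbp5, with its high Day 15 value, had no gene closer than LMLN2 (1.34), followed by Cdkn1c (1.37) and 9430060I03Rik (1.40). Among the 8 genes themselves the closest pair was Igf1r and Igfbp3 (0.78) and the most distant was Igfbp5 and Igfbp7 (4.14).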

How the data were processed

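The 8 genes and the gene lists were chosen with earlier results of these data known. The submitters' processing notes name FastQC, the aligner STAR (2.5.3a) and featureCounts, with the mm10 build (GRCm38.p5); per the labels' protocols, cDNA came from 500 pg of RNA, all RNA was extracted together and libraries were made with Nextera XT, which keeps no strand. The authors deposited log2 values for 24393 genes: log2 of reads divided by a size factor, plus 1, the factors being set by a method not given in the sources used here. Reversing the log2 gave whole reads for 100% of values in each library (tolerance 0.01 reads), and the factors equalled medians of ratios over 11395 genes with reads in all libraries. The deposited unit is log2 and each group has 1 library, so no count model was run. All 7 sample columns were used.

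Folds are ratios of normalized counts, with reads under 3 set to 3. "At least" marks a fold against a library at 0 reads, set to 3, with the reads of the other library taken as counted. Such a fold is not a 95% limit. The lower limits of the counting intervals, given for the 8 genes, are smaller. Intervals are 95%: exact Poisson for levels and Clopper-Pearson for ratios and shares. Reads without molecular identifiers are not independent molecules. Scripts were tested on simulated data (Python 3.11.15, numpy 2.4.6, scipy 1.17.1, pandas 2.3.3). Positions and exon lengths are from GENCODE M21. All 8 members are named, with the 3 genes of most similar profile, their chromosomal neighbours where a value bears on a result, and from each pathway list up to 4 genes past 2-fold with the highest mean level, or all of a list of 6 or fewer. Igfbp1, Htra4, Ins1, Ins2 and Emcn were not analysed here. Alternatives changed the scaling, the floor, the filter, the threshold, the gene length and the library compared.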

Additional observations from a re-analysis of the deposited data

How the results depend on the processing

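No paired analysis was possible because each group has 1 library. Of the 8 genes, only Igfbp2 at Day 8 over Day 2 changed its side of the 2-fold limit with the scaling (log2 fold 0.91, and 0.94 to 1.38 over 3 other scalings, past the limit under 2). Total reads, with and without mitochondrial and ribosomal RNA genes, moved the median log2 fold of all genes to 0.38 and 0.43 in iPSC over Day 2 (0.02 as reported) and to 0.35 and 0.41 at Day 8 over Day 2 (-0.11). The share of called genes that were higher moved to 59.1% and 60.7% (49.1%), and to 57.2% and 58.9% (45.3%); in ESC over iPSC it was 41.0% by total reads (51.4%). At a limit of 4-fold, 2 of the 8 genes were called at Day 8 over Day 2 and 2 at Day 13 over Day 10, where 4 were called at 2-fold in each. With the minimum level at 8, 2 were called at Day 13 over Day 10 and 1 in ESC over iPSC (2 as reported), and at Day 10 over Day 8, 0 were higher (1 as reported, Igfbp6). All-gene counts moved by over 1.5 times with the filter or the limit: in iPSC over Day 2, 4014 genes were higher, 6432 with no filter, 2620 with the minimum at 8 and 2526 at 4-fold, and in iPSC over Day 15, 1122 were higher and 45 at 4-fold. With the length of the longest coding transcript and with no division by length, the share of Igfbp2 was 97.7% and 96.3% in iPSCs and 22.3% and 19.9% at Day 2, and that of Igfbp7 was 0.772% and 0.699% in iPSCs and 58.8% and 48.3% at Day 2. With no division by length, the shares of Igfbp4 and Igfbp5 on Day 15 were 16.2% and 7.08% (8.00% and 2.58%), and that of Igfbp4 on Day 2 was 17.6% (6.41%). The log2 fold of Igfbp5 in iPSC over Day 2 was 0.29 with a floor of 10 reads and 2.19 with ESC in place of iPSC. Among settings chosen after seeing the data, Igfbp7 in iPSC was at 3.64 over Day 10 in place of Day 2, Igf1 was at -0.29 with Day 10 in place of Day 8 over Day 2, and Igfbp6 at Day 10 was at -3.65 over Day 2 in place of Day 8. The cause of these changes was not tested. Depth limits the iPSC library most, where 3 reads were worth 7.03 normalized counts.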
